A study of Mus musculus with 6 samples.

Results

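Cell division of heart muscle is held back after birth by several families of genes, and 10 of them were followed here: Meis1 and Meis2, the pocket protein genes Rb1, Rbl1 and Rbl2, the kinase inhibitor genes Cdkn1a, Cdkn1b and Cdkn1c, and the antiproliferative genes Btg1 and Btg2. They were chosen by name from the 20121 genes in the count tables, all 10 were present, and all 10 passed the filter on low counts. Hearts were taken at postnatal day 14 from mice of mixed background (ICR and C57BL/6) and their RNA was sequenced. The mutant group held 3 pups with Myh6-Cre and the TRalphaAMI allele, and the control group held 3 littermates with the TRalphaAMI allele alone. TRalphaAMI is a knock-in allele that makes a dominant negative receptor alpha for thyroid hormone once Cre has acted, and Myh6-Cre is active in heart muscle cells. Both groups therefore carry the allele, and no group carries Cre alone, so the receptor and Cre itself cannot be told apart. The labels give the tissue as heart, with no sorting of cells and no word on which chambers were kept.

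Cyclin-dependent kinases drive a cell from G1 into S phase by phosphorylating the pocket proteins RB, p107 and p130, which otherwise bind E2F factors and keep their target genes silent. The inhibitors p21, p27 and p57 bind cyclin and kinase complexes and stop them, and MEIS1 is a homeodomain factor that in mouse hearts raises such inhibitors and closes the window of heart muscle cell division after birth. BTG proteins slow division partly through the CCR4-NOT complex, which shortens the tails of messenger RNAs. Thyroid hormone rises in mice over the first weeks of life, while heart muscle cells leave the cell cycle.

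The libraries held 43314706 to 62095277 counts and were scaled by TMM, a trimmed mean of the log ratios of genes between libraries. Each comparison is therefore relative to the bulk of genes, and the median log2 fold change of all genes tested came to -0.0005. When libraries were scaled by their totals alone, the median of all genes tested moved to 0.28 on the log2 scale, so changes smaller than this depend on the scaling. With that scaling edgeR called 7479 of the 14877 genes tested higher and 1207 lower (adjusted p under 0.05). Counts of a list under library totals are to be read beside these. Mitochondrial genes took 16.7% to 18.8% of the counts in mutant hearts and 22.3% to 24.8% in control hearts, ranges that did not overlap, and their part in the results was not tested. The heart label was borne out by the heart muscle genes, whose 10 markers summed to between 42933 and 45423 CPM (counts scaled to a common library size) in mutant hearts and between 80782 and 90337 CPM in control hearts. Most of that gap was Myh6, and the other 9 summed to 39420 to 41102 CPM in mutant hearts and 45650 to 51419 CPM in control hearts. The atrial genes Myl7 and Sln averaged at most 0.222 CPM in either group. Thra, the receptor gene, had 125, 142 and 143 CPM in mutant hearts and 66.8, 81.6 and 81.7 CPM in control hearts. The normal and the altered transcript share these counts. Myh6, whose promoter drives the Cre, fell 9.73-fold in mutant hearts (adjusted p = 7.64e-08, edgeR's quasi-likelihood test), and Myh7, its slow counterpart, was 56.7-fold higher (adjusted p = 3.24e-08).

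One library stood apart for genes that matter here. Control replicate 3 held 8.72 times as much Nr4a1, 5.45 times as much Irs2, 5.43 times as much Sik1 and 5.30 times as much Fos as the mean of the other 2 control hearts. Nr4a1 and Fos are immediate-early genes, which switch on within minutes of a stimulus. The 11 immediate-early genes on the list summed to 193 to 243 CPM in mutant hearts and to 180 to 510 CPM in control hearts, where the highest value was that of control replicate 3. Egr1, highest in control replicate 2, and Ier3, highest in mutant replicate 3, were the exceptions on the list. Among 12656 genes with a mean of at least 1 CPM, Cdkn1a ranked 10 and Btg2 ranked 38 by this ratio of control replicate 3 to the other controls. The main fold changes and the ratios of Cdkn1a and Btg2 are given with and without that heart. Sums are given with all hearts unless stated, and the part of the immediate-early response in these values was not tested.

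Of the 10 brakes, 5 were higher in mutant hearts (Btg1, Rbl1, Meis1, Meis2 and Cdkn1b), 1 was lower (Cdkn1c) and 4 did not pass the test (Rb1, Rbl2, Cdkn1a and Btg2). The test was edgeR's quasi-likelihood F test with Benjamini-Hochberg adjustment over all 14877 genes tested, at an adjusted p under 0.05. Over all those genes, 37.5% were called, 18.1% as higher and 19.5% as lower. Groups did not overlap for 6 of the 10 genes, against 49.8% of all genes tested. The median log2 fold change of the 10 genes was 0.45, against -0.00 over all genes tested. All 5 rises were between 1.29-fold and 1.72-fold, and they stayed past the threshold under the other scalings and with DESeq2. The fall of Cdkn1c did not: its direction turned positive, at a log2 fold change of 0.041, when libraries were scaled by their totals. The summed level of the 10 genes was 489 to 515 CPM in mutant hearts. In control hearts it was 363, 355 and 468 CPM, the last being control replicate 3.

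**Figure D1:**
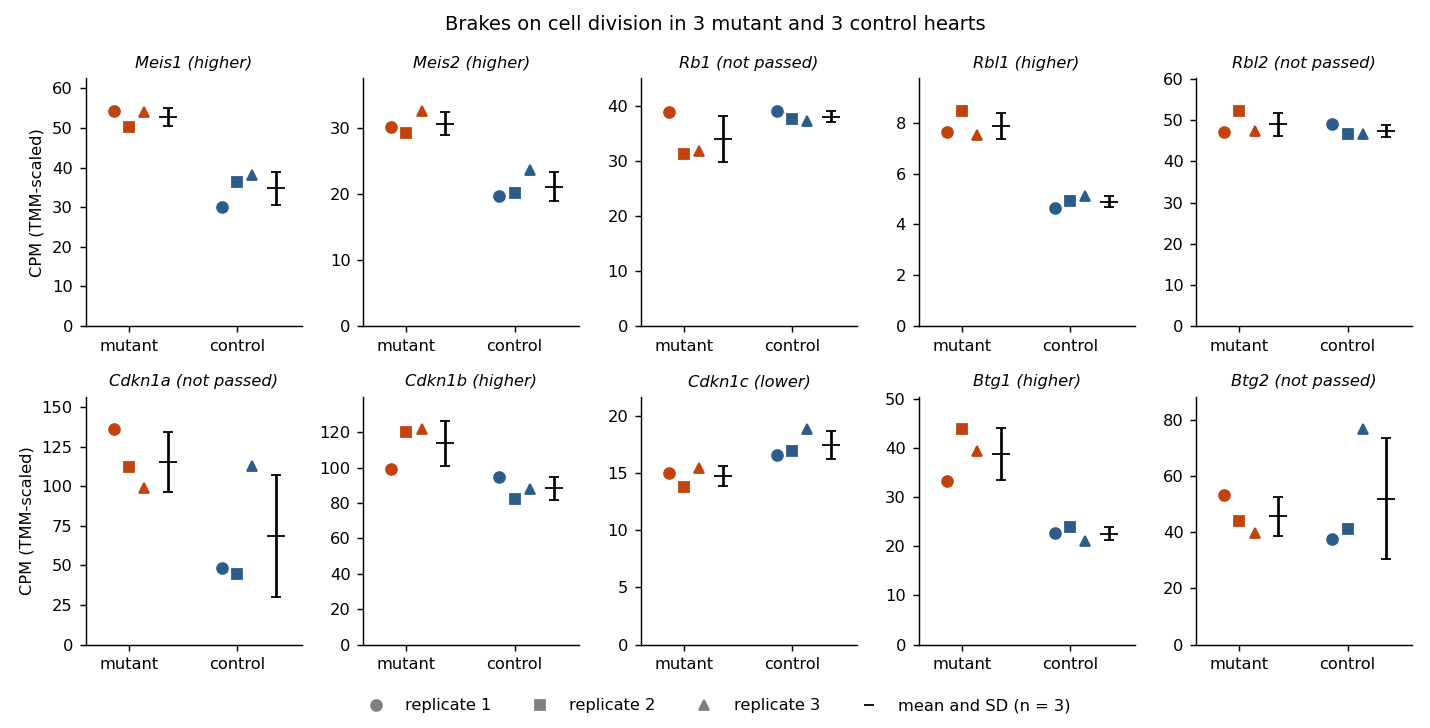
CPM (vertical axis, counts over TMM-scaled library size, starting at 0) of the 10 genes in each mutant heart (left) and control heart (right), with the shape of a point giving the replicate and the bar the mean and SD of 3 hearts. For Btg1, Rbl1, Meis1 and Meis2 all mutant points lie above all control points, while control replicate 3 reaches 113 CPM for Cdkn1a and 76.8 CPM for Btg2.

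The MEIS genes rose together. Meis1 (ENSMUSG00000020160, mm10 chromosome 11, 18879817 to 19018985, minus strand), the homeodomain factor that restrains division of heart muscle cells, had 54.3, 50.1 and 54.0 CPM in mutant hearts and 30.1, 36.2 and 38.1 CPM in control hearts. The lowest mutant heart lay above the highest control heart. Its log2 fold change was 0.60 ± 0.09 (SE), or 1.52-fold, with an adjusted p of 0.000644 in edgeR's test. Leaving out each heart in turn kept Meis1 past the threshold, at log2 fold changes of 0.51 to 0.67. Of its exon bases, 8.51% overlap Gm16140 on the opposite strand and 9.77% overlap Gm37818 on the same strand. Reads of opposite strands cannot be told apart with this kit. Gm16140 averaged 0.0066 CPM in mutant hearts and 0.052 CPM in control hearts, Gm37818 was not analysed here, and the part of either in the Meis1 values was not tested.

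Meis2 (ENSMUSG00000027210, chromosome 2, 115863064 to 116065839, minus strand), its close relative with roles in heart and neural crest development, had 30.2, 29.3 and 32.7 CPM in mutant hearts and 19.7, 20.2 and 23.7 CPM in control hearts. The groups again did not overlap, and the log2 fold change was 0.54 ± 0.09 (SE, edgeR adjusted p = 0.000956). The ratio of Meis1 to Meis2 in RPKM, a level per length of gene, was 1.97 ± 0.0859 in mutant hearts and 1.88 ± 0.157 in control hearts (SD, n = 3 each). The ranges of that ratio overlapped, with a log2 difference of 0.07 and an exact two-sided permutation p of 0.4, where the smallest p that 3 hearts against 3 allow is 0.1.

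Partners of the MEIS proteins went both ways. Pbx2, a homeodomain factor that binds DNA with MEIS, rose by 0.23 on the log2 scale (edgeR adjusted p = 0.0278), and its relative Pbx3 fell by 0.31 (edgeR adjusted p = 0.00771). Meis3, Pknox1 and Pknox2 did not pass. When libraries were scaled by their totals, the fall of Pbx3 was not called.

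Among the pocket proteins only the least abundant one, Rbl1, passed the test in the fit to all 6 hearts. Rbl1 (ENSMUSG00000027641, chromosome 2, 157145893 to 157204534, minus strand) encodes p107, the pocket protein of cycling cells and itself a target of E2F. The 250 bases before its start in RefSeq (GRCm38.p6, chr2:157204535-157204784, minus strand) are shown because they hold an E2F-type site, in capitals, on the strand of the gene and beginning 18 bases before the start.
Rbl1: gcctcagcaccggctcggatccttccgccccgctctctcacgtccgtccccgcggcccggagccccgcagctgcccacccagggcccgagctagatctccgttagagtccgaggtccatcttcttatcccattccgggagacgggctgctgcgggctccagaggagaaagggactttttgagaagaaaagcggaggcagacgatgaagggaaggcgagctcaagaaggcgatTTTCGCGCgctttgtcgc
The letters searched on both strands were TTTGGCGC, TTTCCCGC, TTTGCCGC and TTTCGCGC, and 1.86% of all 32851 promoter windows of that length held one of them. RefSeq windows were at hand for 8 of the 10 genes, and Rbl1 was the one member with such a match. A match of letters is a description and does not show binding.

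Rbl1 had 7.66, 8.48 and 7.53 CPM in mutant hearts and 4.67, 4.92 and 5.10 CPM in control hearts. Every mutant heart lay above every control heart. The log2 fold change was 0.69 ± 0.10 (SE), or 1.61-fold, with an edgeR adjusted p of 0.000454. Rbl2 (ENSMUSG00000031666, chromosome 8, 91070057 to 91123844, plus strand) encodes p130, the pocket protein of resting cells. It had 47.2, 52.3 and 47.5 CPM in mutant hearts and 49.1, 46.7 and 46.6 CPM in control hearts, and the groups overlapped. Its log2 fold change was 0.05 ± 0.07 (SE, edgeR adjusted p = 0.616). Scaling by library totals gave 0.33 and an adjusted p of 0.00246. Of its exon bases, 20.97% overlap genes on the opposite strand, and Aktip, one of them, fell by 0.32 on the log2 scale.

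Rb1 (ENSMUSG00000022105, chromosome 14, 73183673 to 73325822, minus strand), the retinoblastoma gene, had 39.0, 31.4 and 31.9 CPM in mutant hearts and 39.2, 37.8 and 37.3 CPM in control hearts. Mutant replicate 1 lay within the control range and the other 2 mutant hearts below it. The log2 fold change was -0.16 ± 0.09 (SE, edgeR adjusted p = 0.18). Without mutant replicate 1 it was -0.27 with an adjusted p of 0.0127, and scaling by library totals turned it to 0.12. Lpar6 and Rcbtb2, on the opposite strand, overlap 14.9% of the exon bases of Rb1.

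Per length, the ratio of p107 to p130 messages was higher in every mutant heart than in any control heart. The ratio of Rbl1 to Rbl2 in RPKM was 0.205, 0.204 and 0.200 in mutant hearts and 0.120, 0.133 and 0.138 in control hearts. These groups did not overlap, with a 1.56-fold difference and an exact permutation p of 0.1, the smallest possible. A ratio within a heart does not depend on how libraries are scaled. The ratio of Rb1 to Rbl2 was 1.04, 0.754 and 0.842 in mutant hearts and 1.00, 1.02 and 1.01 in control hearts, with overlapping groups (exact permutation p = 0.4). The summed level of the 3 genes was 14.8 ± 0.378 RPKM in mutant hearts and 12.1 ± 0.282 RPKM in control hearts (SD, n = 3 each). That separation rests on the scale: on TMM-scaled CPM the sums were 93.8, 92.2 and 86.9 in mutant hearts and 93.0, 89.4 and 88.97 in control hearts, which overlapped (exact permutation p = 0.9). Rbl1 was the lowest of the 3 in either group, at 1.44 ± 0.0981 RPKM in mutant hearts and 0.736 ± 0.0329 RPKM in control hearts (SD, n = 3 each).

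Of 9 tested partners of the pocket proteins, 1 rose, 1 fell and 7 did not pass, where 37.5% of all genes tested were called. Rbbp4, a histone-binding subunit of the MuvB core, had a log2 fold change of 0.21, and no partner was called higher when mutant replicate 1, 2 or 3 or control replicate 2 or 3 was left out. Tfdp2, which pairs with E2F factors, fell 1.43-fold, to 107 ± 2.35 CPM in mutant hearts against 153 ± 6.83 CPM in control hearts (SD, n = 3 each, edgeR adjusted p = 1.24e-04). E2f4, the main E2F partner of p130, had 24.6 CPM in mutant hearts and 25.0 CPM in control hearts. With library totals 5 of the 9 were higher and 1 lower.

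The inhibitors of the Cip/Kip family did not move alike. Cdkn1b (ENSMUSG00000003031, chromosome 6, 134920401 to 134925513, plus strand), which encodes p27, had 99.2, 120 and 122 CPM in mutant hearts and 94.9, 82.0 and 87.8 CPM in control hearts. The groups did not overlap, although mutant replicate 1 lay close to control replicate 1. The rise was 0.37 ± 0.09 on the log2 scale (SE), or 1.29-fold, with an edgeR adjusted p of 0.0104. The call was lost without mutant replicate 2 (adjusted p = 0.0549) or without control replicate 2 (adjusted p = 0.0519).

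Cdkn1a (ENSMUSG00000023067, chromosome 17, 29090976 to 29100727, plus strand), which encodes p21, the inhibitor best known as a target of p53, had 136, 112 and 98.7 CPM in mutant hearts and 48.1, 44.7 and 113 CPM in control hearts. All 3 mutant hearts lay above control replicates 1 and 2, and control replicate 3 lay within the mutant range. With all hearts the log2 fold change was 0.75 ± 0.31 (SE), with an edgeR adjusted p of 0.0829. Without control replicate 3 it was 1.32 ± 0.13 (SE) with an adjusted p of 4.45e-05, where 2 control hearts remain. That heart stood apart partly through Cdkn1a itself. Its removal therefore favours a small p, which is not separate support for a rise. The call also passed with library totals (log2 fold change 1.03, adjusted p = 0.0148) and with a replicate block (0.88, adjusted p = 0.0439). With DESeq2 on all hearts Cdkn1a did not pass (0.76, adjusted p = 0.242). Leaving out mutant replicate 1, control replicate 1 or control replicate 2 gave adjusted p of 0.188, 0.233 and 0.253 in edgeR's test. Of the other settings tried, Cdkn1a passed in 6 and did not pass in 9. The spread of Cdkn1a in control hearts, 56.1% of its mean, was the widest of the 10 genes, against 16.4% in mutant hearts. AC167363.2, on the opposite strand and not analysed here, overlaps 7.68% of its exon bases.

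Cdkn1c (ENSMUSG00000037664, chromosome 7, 143458339 to 143461050, minus strand) encodes p57 and is imprinted, with expression from the maternal copy. It had 14.997, 13.8 and 15.5 CPM in mutant hearts and 16.6, 17.0 and 18.9 CPM in control hearts. Groups did not overlap, and the fall was 0.24 ± 0.08 on the log2 scale (SE, 1.18-fold, edgeR adjusted p = 0.0407). This call rests on the setting: DESeq2 gave an adjusted p of 0.0583, leaving out mutant replicate 1, 2 or 3 or control replicate 2 or 3 gave 0.0501 to 0.151, and scaling by library totals gave a log2 fold change of 0.041. Gm44732, on the opposite strand and not analysed here, overlaps 30.7% of the exon bases of Cdkn1c.

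Set against Cdkn1b in the same heart, Cdkn1c was lower in mutant hearts, but this ratio also carries the rise of Cdkn1b. Per length, Cdkn1c itself averaged 7.95 ± 0.509 RPKM in mutant hearts and 7.73 ± 0.528 RPKM in control hearts (SD, n = 3 each), which is no fall on that scale. The ratio of Cdkn1c to Cdkn1b in RPKM was 0.337, 0.257 and 0.284 in mutant hearts and 0.391, 0.462 and 0.480 in control hearts. No mutant heart reached the control range, the fold being 0.657, and the exact permutation p was 0.1, the smallest possible. The ratio of Cdkn1a to Cdkn1b was 2.81, 1.903 and 1.66 in mutant hearts and 1.04, 1.12 and 2.63 in control hearts, with groups that overlapped through control replicate 3 (1.43-fold, exact permutation p = 0.3). Without that heart every mutant ratio lay above both control ratios, at 1.92-fold (exact permutation p = 0.2, the smallest possible with 2 control hearts). In both groups Cdkn1a and Cdkn1b were the highest of the 10 genes per length, at 56.9 ± 8.24 and 27.4 ± 3.50 RPKM in mutant hearts and at 27.8 ± 15.5 and 17.5 ± 1.26 RPKM in control hearts (SD, n = 3 each). Cdkn1a held 19.5, 18.1 and 45.7 RPKM in the control hearts, the last being control replicate 3. Cdkn1a and Cdkn1b differed by less than the spread in control hearts, as did Cdkn1b and Btg2, which averaged 17.1 ± 7.08 RPKM there. Summed over the family, the 3 inhibitors held 97.1, 91.9 and 87.8 RPKM in mutant hearts and 45.6, 41.9 and 71.4 RPKM in control hearts, with no overlap (1.79-fold, exact permutation p = 0.1). Without control replicate 3 the sum was 2.11-fold higher. RPKM carries no correction for library composition, and on TMM-scaled CPM the log2 difference of the sums was 0.51 with all hearts, against 0.84 in RPKM.

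**Figure D2:**
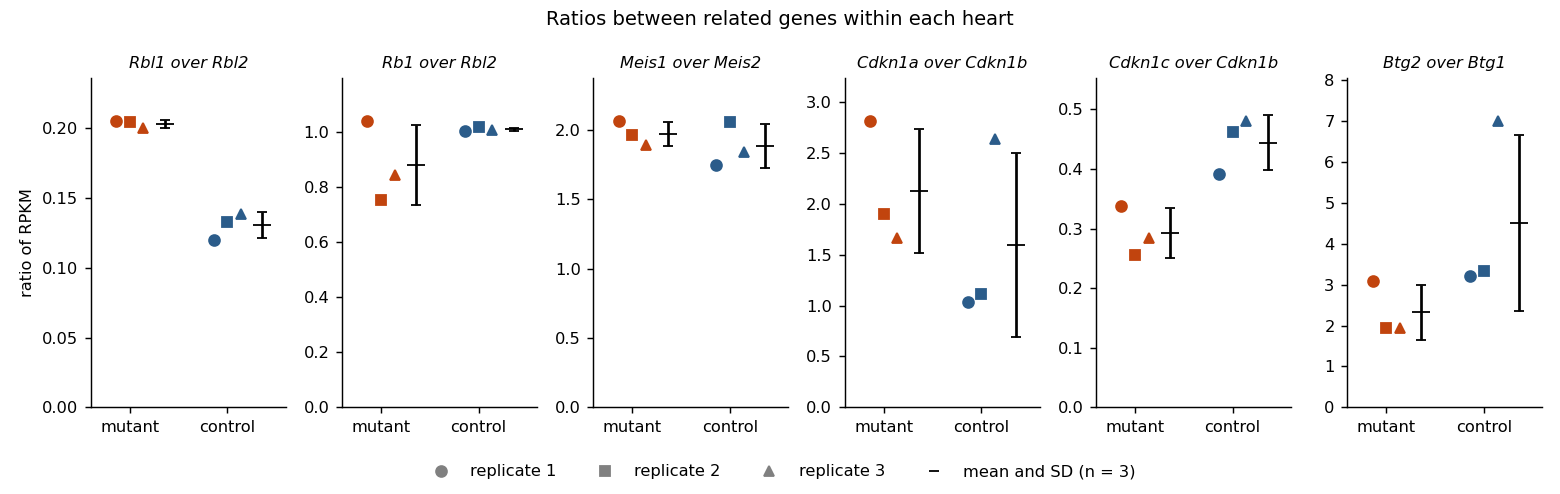
Ratios of RPKM between related genes within each heart (vertical axes start at 0), mutant hearts left and control hearts right, with mean and SD of 3 hearts. Mutant and control points are separate for Rbl1 over Rbl2, Cdkn1c over Cdkn1b and Btg2 over Btg1, and overlap for the other 3 ratios.

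The INK4 family, which blocks the kinases Cdk4 and Cdk6, showed no call. Cdkn2c had 11.6 CPM in mutant hearts and 10.5 CPM in control hearts, and Cdkn2d had 14.1 CPM in mutant hearts and 14.8 CPM in control hearts. By edgeR, DESeq2 and unadjusted p-values alike, 0 of these 2 passed, whereas both were higher with library totals. Cdkn2a held 0, 1 and 0 counts in mutant hearts and 0, 2 and 0 in control hearts, and Cdkn2b 14, 9 and 13 in mutant hearts and 6, 9 and 5 in control hearts, too few to be tested.

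Genes for the turnover of the inhibitors went both ways. Of 10 tested, 3 rose and 4 fell, against 18.1% of all genes tested called higher and 19.5% called lower. The rises were those of Dtl, the adaptor that sends p21 to a Cul4 ligase in S phase (3.27-fold), and of Skp2 (1.47-fold) and its cofactor Cks1b (1.43-fold), which send p27 to the SCF ligase. The falls were those of Ubac1 and Rnf123, the subunits of a ligase that removes p27 in G1, by 0.27 and 0.30 on the log2 scale, and of the SCF subunits Cul1 and Skp1a, by 0.24 and 0.25. With library totals 6 were higher and none of the 4 falls was called. Without mutant replicate 2 or mutant replicate 3 there were 2 falls.

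Of the BTG genes, Btg1 rose and Btg2 did not pass the test. Btg1 (ENSMUSG00000036478, chromosome 10, 96617006 to 96622809, plus strand), an antiproliferative gene high in resting cells, had 33.2, 43.8 and 39.4 CPM in mutant hearts and 22.6, 23.8 and 21.1 CPM in control hearts. All mutant hearts were above all control hearts. Its log2 fold change of 0.78 ± 0.10 (SE), or 1.72-fold, was the largest called among the 10 genes, with an edgeR adjusted p of 0.000254. Btg2 (ENSMUSG00000020423, chromosome 1, 134075170 to 134079120, minus strand), an immediate-early gene and target of p53, had 53.3, 43.9 and 39.8 CPM in mutant hearts and 37.8, 41.3 and 76.8 CPM in control hearts. The highest value was that of control replicate 3 and the groups overlapped. With all hearts its log2 fold change was -0.19 ± 0.24 (SE, edgeR adjusted p = 0.576), and without control replicate 3 it was 0.21 ± 0.12 (SE, adjusted p = 0.201).

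Promoter windows of this pair are printed because the genes share a family and not a pattern across hearts. Whether the marked letters bear on those patterns was not tested. Capitals mark a TATA box (TATAAA) 26 bases before the start of Btg1, and in Btg2 a cyclic AMP response element (TGACGTCA) 166 bases before the start and a nuclear receptor half-site (AGGTCA, here on the opposite strand) 150 bases before it. The windows are from RefSeq, GRCm38.p6, chr10:96616751-96617000, plus strand, and chr1:134079156-134079405, minus strand.
Btg1: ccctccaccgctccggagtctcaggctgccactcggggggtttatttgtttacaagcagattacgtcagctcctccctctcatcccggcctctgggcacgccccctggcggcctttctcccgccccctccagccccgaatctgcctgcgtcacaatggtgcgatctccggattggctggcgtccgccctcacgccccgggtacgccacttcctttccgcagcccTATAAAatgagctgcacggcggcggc
Btg2: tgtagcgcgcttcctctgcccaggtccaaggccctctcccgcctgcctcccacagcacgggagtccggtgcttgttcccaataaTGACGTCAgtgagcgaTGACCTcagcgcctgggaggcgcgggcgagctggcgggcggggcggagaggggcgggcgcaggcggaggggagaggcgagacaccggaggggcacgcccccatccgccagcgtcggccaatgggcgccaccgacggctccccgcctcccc
Searched on both strands, TATAAA was in 12.4% of all windows of this length, TGACGTCA in 1.55% and AGGTCA in 14.0%. Among the members, TATAAA was also in the window of Meis2, and TGACGTCA and AGGTCA were in that of Btg2 alone. TTTGAA, the cell cycle homology region bound by the MuvB core, was in 16.0% of windows and among the members in that of Rbl2.

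The ratio of Btg2 to Btg1 in RPKM was 3.09, 1.93 and 1.94 in mutant hearts and 3.21, 3.33 and 6.99 in control hearts. Mutant replicate 1 lay just under the lowest control heart, and the groups did not overlap (fold 0.537, exact permutation p = 0.1, the smallest possible). Without control replicate 3 the fold was 0.692 and the groups still did not overlap. Btg2 held 12.4, 13.6 and 25.2 RPKM in the control hearts, the last being control replicate 3. Btg1 averaged 8.07 ± 1.20 RPKM in mutant hearts and 3.85 ± 0.234 RPKM in control hearts, and Btg2 averaged 18.2 ± 2.40 RPKM in mutant hearts and 17.1 ± 7.08 RPKM in control hearts (SD, n = 3 each).

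**Figure D3:**
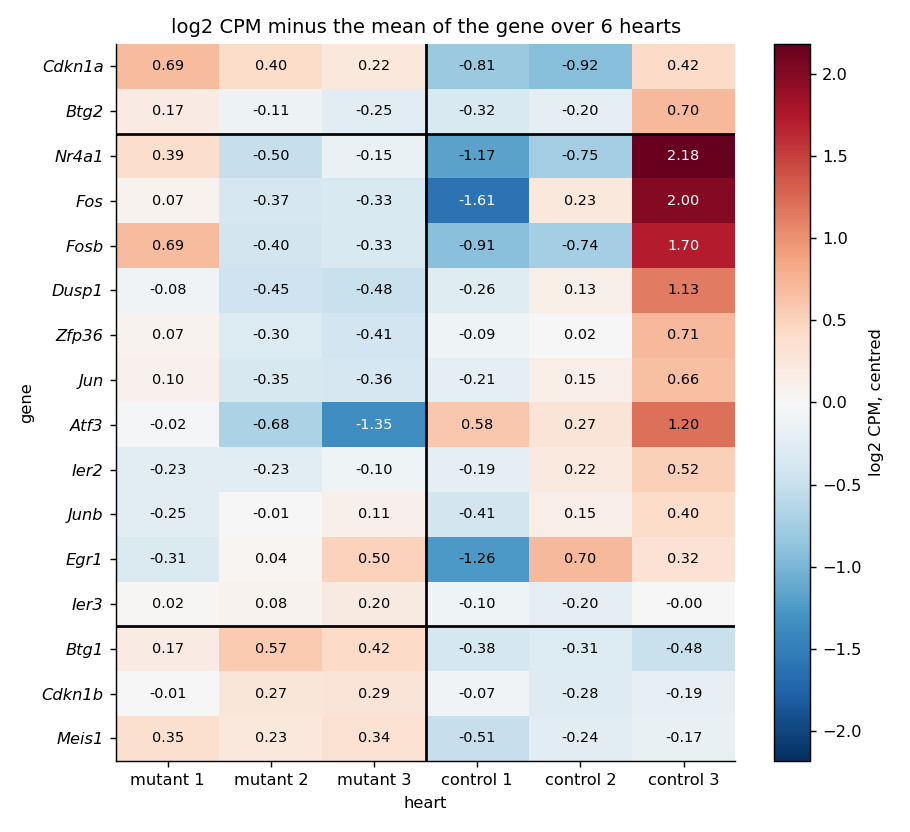
Centred log2 CPM (colour and printed number; each gene minus its mean over 6 hearts) of Cdkn1a and Btg2 (top block), 11 immediate-early genes (middle block) and, for comparison, Btg1, Cdkn1b and Meis1 (bottom block), with mutant hearts left and control hearts right. Control replicate 3 is the highest heart for Btg2, Nr4a1, Fos and Dusp1, and is above the other 2 control hearts for Cdkn1a but not for Btg1.

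Relatives of the BTG genes also went both ways. Tob1 rose 1.34-fold and Tob2, with the same family domain, fell by 0.92 on the log2 scale, to 59.3 CPM in mutant hearts against 112 CPM in control hearts. Cnot1, the scaffold of the CCR4-NOT complex, rose 1.17-fold. The other 5 of the 8 tested did not pass, among them the deadenylase genes Cnot7 and Cnot8 with log2 fold changes of -0.01 and 0.01. In the main fit 37.5% of all genes tested were called. With library totals 6 of the 8 were higher.

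Cyclin and kinase genes and targets of E2F were mostly higher in mutant hearts. Of 11 cyclin and kinase genes, 9 rose and 2, Ccnd1 and Ccne2, did not pass. Ccnd2, the most abundant cyclin on the list, had 401 ± 13.7 CPM in mutant hearts and 189 ± 14.5 CPM in control hearts (SD, n = 3 each). Ccnd3 rose 1.52-fold, Cdk2, the kinase that p21 and p27 bind with cyclins E and A, rose 1.56-fold, and Cdk1 and Ccna2 of the later cycle rose 2.70-fold and 3.89-fold. Of 22 E2F target genes, 19 rose and Mcm2, Pcna and Mybl2 did not pass. Rrm2, which helps to make deoxynucleotides, rose 4.02-fold. The spindle checkpoint kinase gene Bub1 rose 5.26-fold from a low level, with 3.18 CPM in mutant hearts and 0.61 CPM in control hearts. Mki67, a marker of cycling cells, had 18.96, 19.9 and 14.1 CPM in mutant hearts and 7.55, 7.03 and 4.84 CPM in control hearts. The median log2 fold changes were 0.66 for the cyclin and kinase genes and 0.97 for the E2F targets. Of the cyclin and kinase genes, 8 were higher with DESeq2, 8 without control replicate 3 and 11 with library totals. For the E2F targets these counts were 18, 17 and 22. Over all genes tested, 18.1% were called higher in the main fit. Btg1, Rbl1, Meis1, Meis2 and Cdkn1b were higher in the same hearts.

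**Figure D4:**
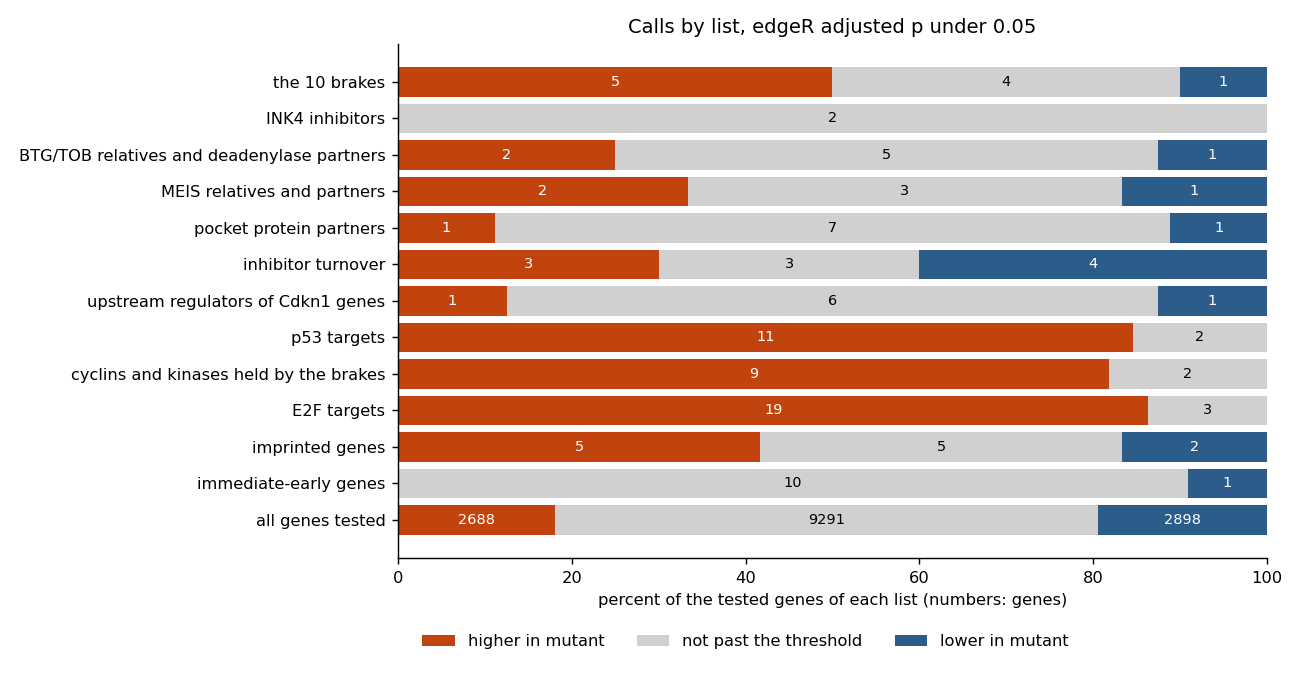
Share of the tested genes of each list (horizontal axis, percent; printed numbers are genes) called higher in mutant hearts, not past the threshold, or called lower, by edgeR's quasi-likelihood test. The 10 brakes have 5 higher and 1 lower, the E2F targets 19 of 22 higher, and the bottom bar gives all 14877 genes tested for comparison.

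Targets of p53, the factor that raises Cdkn1a and Btg2 on DNA damage, were examined beside them. Of 13 tested, not counting Cdkn1a and Btg2, 11 rose, against 18.1% of all genes tested. The other 2, Ccng1 and Sesn1, did not pass. Phlda3, an inhibitor of Akt signalling, had 33.6 ± 0.580 CPM in mutant hearts and 12.3 ± 1.01 CPM in control hearts (SD, n = 3 each). Eda2r, a receptor of the tumour necrosis factor family, rose 3.46-fold, Zmat3 1.69-fold and Gdf15 2.86-fold. Gdf15 was low, at 1.59 CPM in mutant hearts and 0.55 CPM in control hearts. The median log2 fold change was 0.53, and without control replicate 3 there were 10 rises. Among 8 upstream regulators, Trp53 itself rose 1.19-fold, and none of the 8 was called higher when mutant replicate 2 or 3 or any 1 control heart was left out, while Foxo4 fell by 0.24 on the log2 scale. Mdm2, which is both a target of p53 and its ligase, did not pass, at a log2 fold change of -0.12. With library totals 5 of these 8 were higher and Foxo4 was not called lower.

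Cdkn1c belongs to a set of imprinted growth genes, of which 12 others were tested. Of these 5 rose and 2 fell, against 18.1% of all genes tested called higher and 19.5% called lower. Plagl1, a zinc finger factor of this set, had 177 ± 14.4 CPM in mutant hearts and 48.8 ± 1.55 CPM in control hearts (SD, n = 3 each). Igf2r, the receptor that clears Igf2, rose 2.08-fold and Grb10, an adaptor that dampens growth factor signals, 1.53-fold, whereas Dlk1 was 2.75-fold lower, at 0.772 CPM in mutant hearts and 2.15 CPM in control hearts. Kcnq1, the neighbour of Cdkn1c in the same imprinted region, did not pass, at a log2 fold change of 0.14. With library totals 9 were higher and 1 lower.

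Markers of other cells of the heart also differed between the groups. Their counts stand beside 18.1% of all genes tested called higher and 19.5% called lower. Under library totals 7479 of the 14877 genes tested were called higher and 1207 lower. In bulk RNA, fewer cells of a type and less RNA per cell cannot be told apart. Of 8 endothelial markers, 5 fell, and the list summed to 1334 to 1437 CPM in mutant hearts and 1561 to 1682 CPM in control hearts, with no fall called under library totals. Of 7 macrophage markers, 5 fell (4 under library totals), with sums of 54.1 to 55.4 CPM in mutant hearts and 78.9 to 87.9 CPM in control hearts. Of 7 fibroblast markers, 3 rose, with sums of 2782 to 3089 CPM in mutant hearts and 2470 to 2702 CPM in control hearts, and all 7 were higher under library totals. Among 6 markers of smooth muscle and pericytes, Cspg4 rose 2.19-fold and Rgs5 fell by 0.26 on the log2 scale. Of 10 heart muscle markers, 6 fell (4 under library totals, where 2 were higher). The other 4, Tnnt2, Ttn, Mybpc3 and Actn2, did not pass in the main fit. Their log2 fold changes were -0.05, -0.08, 0.09 and 0.08, so the markers did not move alike. The part of these differences in the values of the 10 brakes was not tested, and no value here assigns a brake to a cell type.

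The 5 lymphocyte genes summed to at most 2.52 CPM in any heart, the 5 skeletal muscle genes to at most 2.52 CPM and the lung and thymus genes to at most 0.107 CPM. Red cell genes summed to 91.2 to 242 CPM in mutant hearts and 157 to 245 CPM in control hearts. Of the epicardial genes Tbx18 rose 1.35-fold and Wt1 fell by 0.36 on the log2 scale. The Schwann cell genes summed to 11.9 to 16.3 CPM in mutant hearts and 12.3 to 12.9 CPM in control hearts. Among atrial genes Nppa rose 6.01-fold and Myl4 1.41-fold, while Myl7 and Sln had too few counts to be tested.

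The genes most like Btg1 over the 6 hearts, by Pearson correlation of log2 CPM, were Cfap43 (r = 0.999), Efna4 (0.998) and Srgap1 (0.997). Those most like Cdkn1c were Med4 (0.994), Rcc1l (0.991) and Metap1d (0.990). These correlations are descriptions over 6 libraries that fall into 2 groups, so genes that differ between the groups correlate by that difference.

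**Figure D5:**
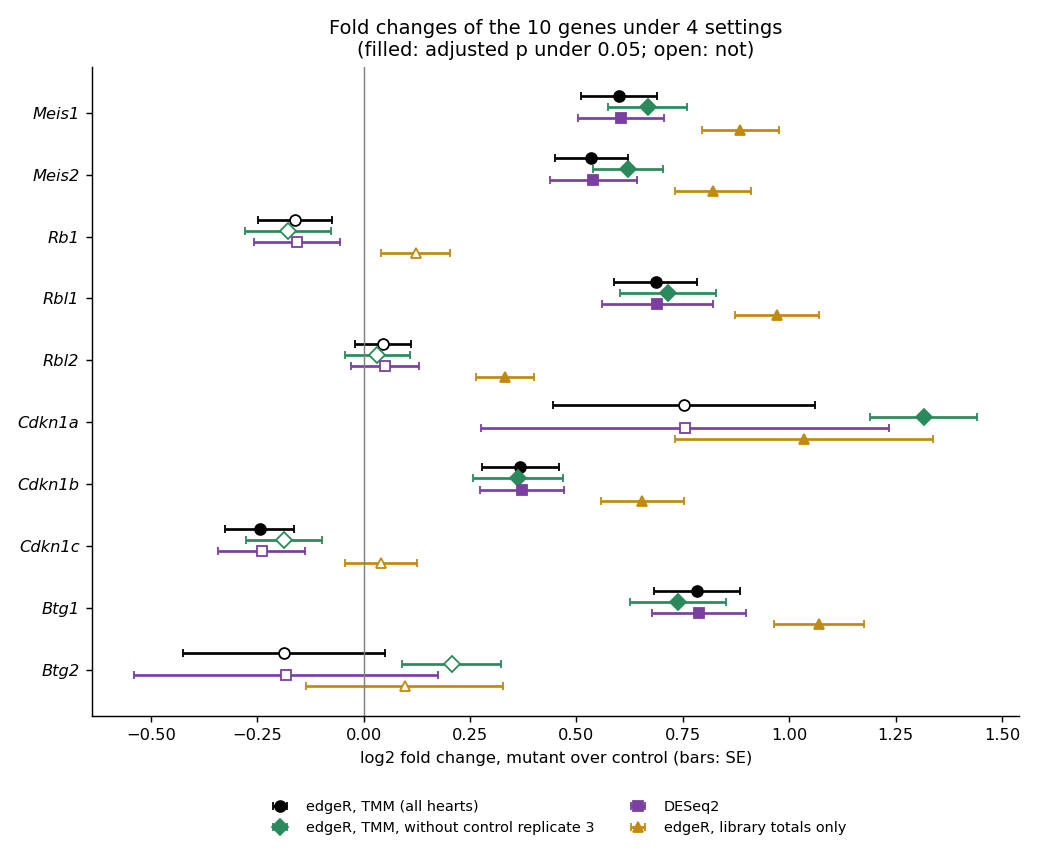
Log2 fold change, mutant over control (horizontal axis), of the 10 genes with SE bars under 4 settings, filled where the adjusted p was under 0.05 and open where it was not. Cdkn1a moves from 0.75 with all hearts to 1.32 without control replicate 3, and the points with library totals lie to the right of those with TMM for all 10 genes.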

How the data were processed

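Per the labels' protocols, Trizol was used for RNA extraction and the Illumina TruSeq RNA kit, version 2, which does not mark strand, for the libraries. The submitters' processing notes name cutadapt 1.9, STAR 2.5.2b, featureCounts 1.5.1 and mm10. Which annotation the counts used is not given in the sources used here. Each heart has deposited whole counts per gene and RPKM values, which, made by the authors, are proportional to those counts divided by length of gene and by library total, as the values show. Symbols and positions came from GENCODE M21, which named 20081 of 20121 identifiers.

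The test on counts was that of edgeR 4.0.16 (R 4.3.3) after filterByExpr, which left 14877 genes, TMM scaling, group as the only term and Benjamini-Hochberg adjustment. The SE of a log2 fold change is its size over the square root of F. DESeq2 1.42.0 and limma 3.58.1 on log2(RPKM + 1) and log2(RPKM + 0.1) were alternatives, with 3 other scalings, no filter, a replicate block and each heart left out in turn. The main edgeR test was tested on simulated data. Ratios of RPKM were compared by exact permutation in scipy 1.17.1, 10 comparisons in all, and after Benjamini-Hochberg adjustment the smallest p was 0.167. All p-values refer to the spread among these 6 pups. The members and lists were chosen with earlier results of these data known. Named were the members, up to 4 called genes of each list by adjusted p (the 2 highest in CPM where none was called), 4 genes that check the series, and correlates of the members with the largest called rise and fall. Other genes named were chosen after their values were seen. A result on a listed gene is not reported here.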

Additional observations from a re-analysis of the deposited data

How the results depend on the processing

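Under all 15 alternatives Btg1, Rbl1, Meis1 and Meis2 stayed higher and past the threshold, and Cdkn1b under 13 of them. Over all genes, library totals called 7479 higher and 1207 lower (8686 in all), limma on log2(RPKM + 1) 7349 and 1215 (8564), on log2(RPKM + 0.1) 7391 and 1221 (8612), and without a filter on log2(RPKM + 1) 6916 and 1170. Of the calls with library totals, 86.1% were higher, against 48.1% with TMM. Leaving out each heart gave 2039 to 2661 genes higher and 2234 to 2856 lower, with 4 to 6 of the 10 brakes higher and 0 to 1 lower.

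With library totals, log2(RPKM + 1), log2(RPKM + 0.1) and log2(RPKM + 1) without a filter, in this order, Rb1 turned to 0.12, 0.10, 0.11 and 0.10, Cdkn1c to 0.041, 0.036, 0.040 and 0.036, and Btg2 to 0.10, 0.15, 0.16 and 0.15. By construction these scales lack the composition scaling. In the same order Rbl2 passed at 0.33, 0.28, 0.32 and 0.28, and Cdkn1a at 1.03, 1.12, 1.16 and 1.12. The fall of Cdkn1c missed the threshold with upper quartile scaling (-0.23), DESeq2 (-0.24) and no filter in edgeR (-0.24), so 0 members were lower there and on the 4 scales above. Members lower with unadjusted p under 0.05 in edgeR numbered 1. The cause was not tested.

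Leaving out 1 heart gave -0.27 to -0.11 for Rb1, -0.0036 to 0.073 for Rbl2, 0.52 to 1.32 for Cdkn1a, 0.31 to 0.46 for Cdkn1b, -0.29 to -0.19 for Cdkn1c and -0.37 to 0.21 for Btg2. Deviations from the group means had r of 0.15, -0.05 and 0.10 between same-numbered hearts, and -0.18 to 0.09 between others. With 3 hearts per group this can neither show nor exclude pairing. The replicate block called 3090 genes higher and 3229 lower, and 6 brakes higher, the added one being Cdkn1a at 0.88. Cdkn2a and Cdkn2b had too few counts to be tested, and the effect of depth on other genes was not tested.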
